A study of Mus musculus with 18 samples.

Results

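The genes described here are 9 components of autotaxin and lysophosphatidic acid (LPA) signalling in mouse mammary epithelial organoids: Enpp2, 5 LPA receptor genes (Lpar1, Lpar2, Lpar3, Lpar4 and Lpar6) and 3 lipid phosphate phosphatase genes (Plpp1, Plpp2 and Plpp3). They were picked by symbol out of 56691 features counted in an estradiol experiment and 56893 counted in a Torin 1 experiment, because of their levels in the 6 groups and their changes against vehicle. The changes against vehicle, and the differences between groups made from the same levels, are therefore given for these genes as a description, with library values, the log2 fold change and its standard error (SE) and no p. In the estradiol table the 3 phosphatases appear under the older symbols Ppap2a, Ppap2c and Ppap2b and were matched by gene identifier. All 9 had enough counts to be tested in both experiments. In the GENCODE annotation of GRCm38 they lie on chromosomes 15 (Enpp2), 4 (Lpar1 and Plpp3), 8 (Lpar2), 3 (Lpar3), X (Lpar4), 14 (Lpar6), 13 (Plpp1) and 10 (Plpp2).

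Autotaxin, the protein made from Enpp2, is a secreted lysophospholipase D that removes choline from lysophosphatidylcholine outside the cell and so makes LPA. LPA is a signalling lipid that acts on the G protein-coupled receptors of the Lpar genes, which couple to several G protein families, and the lipid phosphate phosphatases of the Plpp genes act as ectoenzymes that take the phosphate off LPA and related lipids. In the breast autotaxin is best known as a product of adipose tissue, a tissue that surrounds the mammary epithelium.

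All organoids came from epithelial cells of wild-type nulliparous C57BL/6 females, 3 mammary glands from 3 mice according to the series text. In the estradiol experiment (mice of about 24 weeks, 12 days of culture in EpiCult-B medium) the groups were 10 nM estradiol and the ethanol vehicle, each for 11 days. In the Torin experiment (mice of about 15 weeks, 18 days of culture in Matrigel droplets) the groups were 100 nM Torin 1, which blocks the kinase mTOR in both of its complexes, and the DMSO vehicle, each in an arm called D6 and an arm called D12. The sample labels read 6 days of treatment for D6 and 12 days for D12, the series text reads the reverse, and the labels tag the arms as batches, so no statement below rests on which arm was treated longer. Each of the 6 groups held 3 libraries. The sources used here do not say whether replicates came from separate animals or cultures, so a p-value measures the spread between libraries, which may be technical.

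Each estradiol or ethanol library held 20637473 to 24312079 counts in all, each Torin or DMSO library 23239364 to 28910688. Levels are given in CPM, the gene's count as a rate of the library's total scaled by the trimmed mean of M values, and levels of different genes are compared per kilobase of exon (CPM per kb). The 7 pan-luminal markers, such as Krt8 and Epcam, and the 10 basal markers, such as Krt14 and Acta2, were detected in every group, at summed levels of 4386 to 9008 CPM and 1732 to 9201 CPM. Transcripts of the 14 fibroblast markers, such as Col1a1 and Pdgfra, were present too, at a summed level of 1084 to 2331 CPM. The marker Postn was the largest part of that sum in every group. Of 13 adipocyte markers 2 had enough counts to be tested with estradiol and 4 with Torin. The biological coefficient of variation fitted over all genes was 5.27% for the 6 estradiol and ethanol libraries and 20.2% for the 12 others. Torin D6 replicate 3 stood apart from its group. Of 11193 genes with a mean of 5 CPM or more in the Torin experiment, 809 were at least 2-fold above both other Torin D6 libraries in it, against 0 to 19 genes in each of the other 17 libraries measured against their own groups, and without it the coefficient of the Torin experiment was 12.5%. None of the 9 genes was 2-fold above or below both other libraries of the group in it. Without this library the D6 log2 fold change of Enpp2 was 4.87, that of Lpar1 -0.24, that of Lpar3 1.32, that of Lpar6 -0.48, that of Plpp1 -0.69 and that of Plpp2 0.29, and for Lpar2, Lpar4 and Plpp3 it is given beside their values. In bulk RNA, fewer cells of a type and less RNA per cell cannot be told apart.

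Enpp2 was a gene of few reads in vehicle organoids. It had one of the largest increases under estradiol and under Torin among the genes ranked below. The 3 ethanol libraries held 100, 41 and 45 Enpp2 reads, or 4.33, 1.72 and 2.19 CPM, and the 3 estradiol libraries held 2661, 2549 and 2468 reads, or 120, 118 and 116 CPM. The estradiol libraries lay far above the ethanol ones and, in proportion to their level, closer to each other. The log2 fold change was 5.42 (SE 0.14), a 42.7-fold higher level.

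In the D6 arm, the DMSO libraries measured 9.84, 6.89 and 3.83 CPM of Enpp2 and the Torin libraries 199, 203 and 157 CPM. In the D12 arm, DMSO gave 5.27, 5.81 and 5.48 CPM and Torin 175, 183 and 165 CPM. No Torin library came near a DMSO library in either arm, and the DMSO libraries of D6 were the ones that varied most in proportion. The log2 fold change was 4.77 (SE 0.26) in D6, or 27.3-fold, and 4.98 (SE 0.27) in D12, or 31.6-fold.

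The Torin effect on Enpp2 was 0.21 larger on the log2 scale in D12 than in D6 (SE 0.33), a difference smaller than its SE, and it was -0.15 without DMSO D6 replicate 1, the library of 9.84 CPM. The DMSO organoids of D12 measured -0.31 (SE 0.25) against those of D6.

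**Figure D1:**
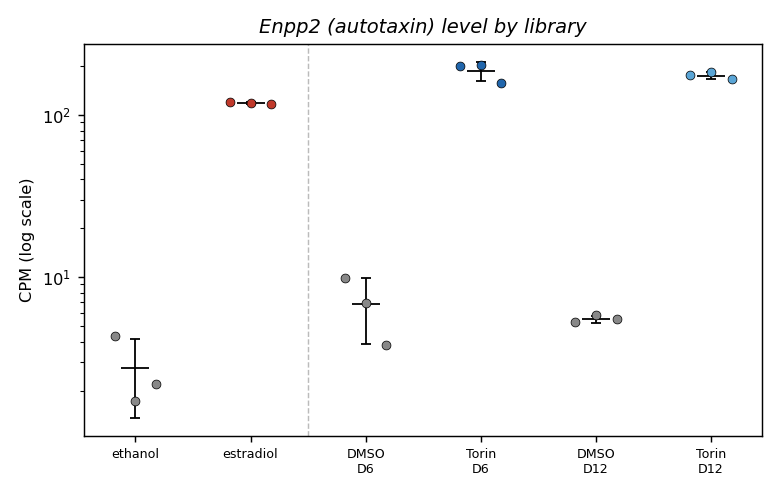
Enpp2 level in CPM on a log axis in the 18 libraries of 6 groups; points are libraries, horizontal marks and bars are the mean and SD of 3, and the dashed line parts the experiments, which were normalized separately. Vehicle libraries lie between 1.72 and 9.84 CPM and treated libraries between 116 and 203 CPM.

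Genes were ranked whose mean over all libraries of an experiment was 5 CPM or more. Enpp2 had the 2nd largest log2 fold change under estradiol of 11223 genes. It had the 6th largest under Torin in D6 and the 3rd largest in D12 of 11193 genes. In the estradiol experiment Enpp2 passed the cut only through the estradiol group, with a mean of 118 CPM against 2.75 CPM in ethanol. Genes under the cut were not ranked, and Enpp2 was chosen on these changes, so the ranks are a description. Of 14246 genes tested in both experiments, 59 were at least 2-fold higher in all 3 comparisons, 15 at least 4-fold, 6 at least 8-fold and 3 at least 16-fold. The 3 genes past 16-fold were Enpp2, Krt4, a keratin of stratified epithelia with log2 fold changes of 5.13, 7.40 and 7.64, and Greb1, a well-known estrogen-induced gene with 4.56, 4.89 and 4.15 (estradiol, D6 and D12 in that order). Without Torin D6 replicate 3 the same 3 genes were past 16-fold, and Enpp2 was 5th of 11142 genes in D6. The 2 Torin comparisons share one table but not their control libraries.

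Per kilobase of exon, Enpp2 lay in the lower part of the distribution of expressed genes in vehicle and in the upper part in treated organoids. In ethanol it stood above 13.4% of 15144 genes ranked, in estradiol above 84.5%. In the Torin experiment, with 16958 genes ranked, it stood above 34.5% in DMSO D6 and 31.9% in DMSO D12, and above 89.4% in Torin D6 and 89.2% in Torin D12. Enpp2 was thus a gene of fairly low abundance in every vehicle group, lowest by this rank in ethanol, and of fairly high abundance in every treated group.

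Within the 9 genes the order of per-length levels changed around Enpp2. In ethanol the order was Plpp2 (75.3 CPM per kb), Plpp3 (38.3), Lpar6 (4.91), Lpar2 (4.54), Lpar3 (3.79), Plpp1 (3.06), Lpar1 (2.17), Enpp2 (0.475) and Lpar4 (0.391), and the libraries overlapped between Lpar6 and Lpar2, Lpar3 and Plpp1, and Enpp2 and Lpar4. In estradiol Enpp2 was 3rd, at 20.4 CPM per kb, below Plpp3 at 26.9 and above Lpar3 at 5.74, with no overlap on either side. In Torin D6 and Torin D12 it was again 3rd, at 32.2 and 30.2 CPM per kb, after Plpp3 and Plpp2 and before Lpar6, also without overlap. It was 7th in DMSO D6 (1.19 CPM per kb) and 8th in DMSO D12 (0.955 CPM per kb), and overlapped its neighbours Lpar3 and Lpar2 in DMSO D6. By mean level per kb, the transcript of the LPA-producing enzyme was thus below the receptor genes except Lpar4 (and, in DMSO D6, Lpar2) in vehicle. In treated organoids it was above each receptor gene. The vehicle order depends on the division by length. In CPM, mean Enpp2 was above mean Lpar3 in DMSO D6 (6.85 against 3.22) and in DMSO D12 (5.52 against 3.41).

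The genes whose profile was most like that of Enpp2 were found by Pearson's r of log2(CPM + 1), centred on each experiment, over the 18 libraries and 12701 genes. They were Cldn10, a tight junction claudin (r = 0.984), Khdrbs3, an RNA-binding protein (0.982), Ctns, the lysosomal cystine transporter (0.981), Cxcl15, a chemokine (0.980), and Cel, a lipase of milk and pancreas (0.978). Their log2 fold changes in estradiol, D6 and D12 were 2.50, 2.52 and 2.53 for Cldn10 and 4.29, 3.31 and 4.05 for Cel. These r values describe a shared contrast between treated and vehicle libraries, which all points have in common, and carry no test.

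Markers of other cell types were measured beside the Enpp2 levels. The 13 adipocyte markers summed to 18.1 to 18.7 CPM in ethanol and 13.2 to 15.3 in estradiol, 26.2 to 36.1 in DMSO D6 and 16.8 to 20.3 in Torin D6, and 33.3 to 37.4 in DMSO D12 and 23.7 to 28.5 in Torin D12. Most of this sum was Lipe, the hormone-sensitive lipase gene, and Cidea, a lipid droplet gene. Lipe fell in all 3 comparisons (log2 -0.64, -0.73 and -0.54, edgeR adjusted p = 0.00018, 0.00441 and 0.0321), and Cidea measured 0.43 with estradiol (edgeR adjusted p = 0.079), -0.69 in D6 (0.014) and -0.19 in D12 (0.507). The part of adipocytes in the Enpp2 levels was not tested. Adipoq, the adiponectin gene and a defining adipocyte marker, was near 0 in treated and vehicle groups alike. It had 1 read in all of ethanol, 2 in estradiol, 1 in DMSO D6 and 0 in DMSO D12 and both Torin groups. Lep, the leptin gene, was at 0 in every group except estradiol, where it had 2 reads. The long non-coding gene Gm26684, which shares 345 bases of exon with Enpp2 on the opposite strand, stayed between 0.708 and 1.14 CPM as a mean of any group.

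The receptor genes fell into an order that differed between the experiments, whose levels were normalized separately and are set side by side without a test. The experiments also differed in mouse age, culture and kind of deposited count. Genes outside the family differed between them too, such as Srf, at 56.1 CPM in ethanol and 3.15 CPM in DMSO D6. The source of such differences was not tested. Lpar6 and Lpar2 had the highest share of the summed receptor transcripts per kb in ethanol (27.6% ± 0.78 and 25.5% ± 0.87, SD, n = 3; the sum also counts Lpar5), whereas Lpar6 and Lpar1 had it in DMSO D6 (49.2% ± 0.64 and 32.4% ± 0.42) and DMSO D12 (47.3% ± 3.63 and 32.4% ± 1.44). The receptor sum was 17.8 CPM per kb in ethanol, 18.9 in estradiol, 24.0 in DMSO D6, 20.4 in Torin D6, 23.9 in DMSO D12 and 26.8 in Torin D12. The receptor whose share differed most between treatment and vehicle was Lpar3, at 21.2% ± 1.41 in ethanol and 30.4% ± 1.63 in estradiol, where it was the first of the receptors. It had 5.46% ± 0.45 in DMSO D6 and 16.5% ± 1.55 in Torin D6, and 5.79% ± 1.97 in DMSO D12 and 14.9% ± 0.35 in Torin D12.

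**Figure D2:**
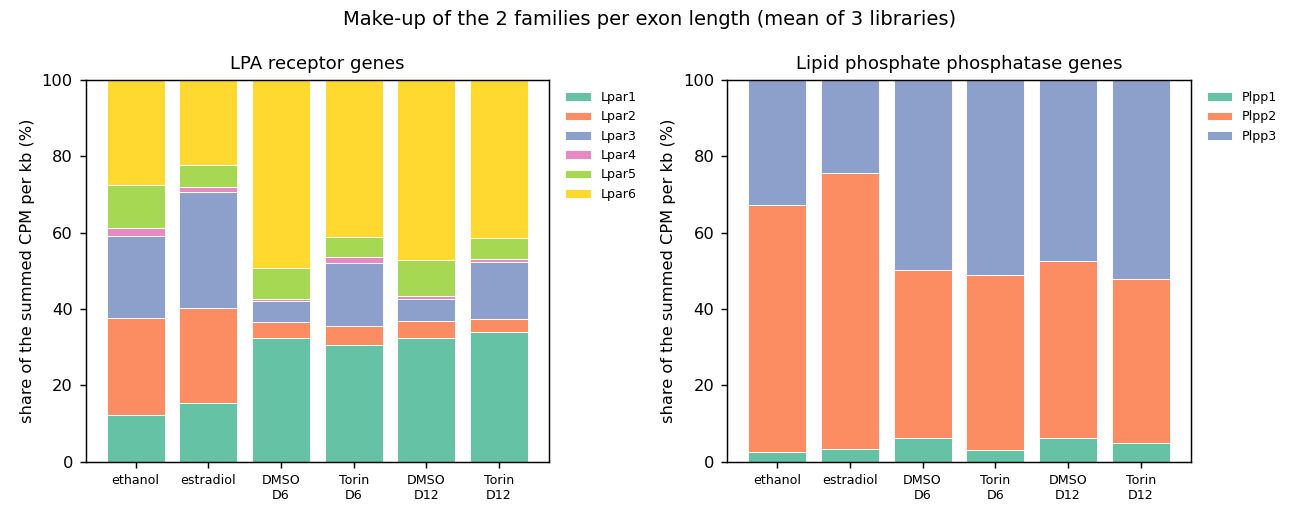
Share of each gene in the summed level of its family in CPM per kb of exon, as the mean of 3 libraries in each of 6 groups; colours are genes and each bar reaches 100%. Lpar3 goes from 21.2% to 30.4% with estradiol and from 5.46% to 16.5% with Torin in D6, and Plpp2 from 64.6% to 72.3% with estradiol.

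Lpar3, a Gq- and Gi-coupled receptor, was the receptor gene with a higher level in all 3 treatments. It measured 8.18, 10.0 and 9.77 CPM in ethanol and 13.7, 14.7 and 14.0 CPM in estradiol, a log2 fold change of 0.60 (SE 0.10). The DMSO D6 libraries were at 3.27, 3.44 and 2.96 CPM and the Torin D6 libraries at 8.62, 7.59 and 8.62 CPM, a log2 fold change of 1.36 (SE 0.22). In D12 the levels were 2.06, 4.07 and 4.08 CPM with DMSO and 9.09, 10.1 and 10.4 CPM with Torin, a log2 fold change of 1.53 (SE 0.22). Treated and vehicle libraries did not overlap in any of the 3 comparisons. The difference between the arms was 0.17 (SE 0.31), smaller than its SE. The genes most like Lpar3 over the 18 libraries were Fkbp4, a steroid receptor co-chaperone (r = 0.967), Lancl2 (0.967) and Ddx49, an RNA helicase (0.955).

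Lpar6, a receptor coupled to G12/13, was lower with estradiol and lower with Torin in D6. Its level was 25.4, 27.5 and 26.7 CPM in ethanol and 23.4, 21.2 and 23.5 CPM in estradiol, a log2 fold change of -0.22 (SE 0.07), with no overlap. In D6 it was 63.5, 63.0 and 64.5 CPM with DMSO and 47.7, 44.6 and 43.5 CPM with Torin, a log2 fold change of -0.49 (SE 0.09), again with no overlap. In D12 the DMSO libraries at 62.5, 66.0 and 54.5 CPM overlapped the Torin libraries at 59.0, 53.8 and 66.3 CPM, and the log2 fold change was -0.03 (SE 0.09). The difference between the arms, D12 minus D6, was 0.46 (SE 0.13), and 0.38 to 0.53 over 19 alternative settings. Rb1, whose exons overlap those of Lpar6 by 408 bases on the opposite strand, measured -0.14 with estradiol (edgeR adjusted p = 0.0984), -0.31 in D6 (0.528) and -0.76 in D12 (0.159) on the log2 scale.

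The sequence before the transcription start of these receptor genes was read from RefSeq on GRCm38.p6, for the receptor that was higher in all 3 treatments and for the receptor with the largest share in DMSO. Each line gives the 250 bases before the start on the plus strand, 5′ to 3′, for Lpar3 at chr3:146220711-146220960 and for Lpar6 at chr14:73237641-73237890, with capitals for the 5 letters of an estrogen response half-site, GGTCA, or its reverse complement TGACC.
Lpar3: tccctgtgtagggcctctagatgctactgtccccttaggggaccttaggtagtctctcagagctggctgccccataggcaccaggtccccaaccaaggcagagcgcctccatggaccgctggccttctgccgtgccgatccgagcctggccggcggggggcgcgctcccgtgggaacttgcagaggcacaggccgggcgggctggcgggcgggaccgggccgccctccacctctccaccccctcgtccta
Lpar6: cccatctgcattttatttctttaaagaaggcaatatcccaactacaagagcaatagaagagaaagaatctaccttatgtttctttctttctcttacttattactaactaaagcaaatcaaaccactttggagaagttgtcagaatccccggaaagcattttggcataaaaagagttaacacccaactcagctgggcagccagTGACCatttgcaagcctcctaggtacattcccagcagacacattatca
The Lpar3 window holds no half-site and the Lpar6 window holds 1. Windows were at hand for 7 of the 9 genes, the ones other than Enpp2 and Plpp1. Over both strands of the windows from 250 bases before to 50 after the start, GGTCA was found in 40.5% of 32851 windows, the full element (GGTCA, 3 bases of any kind, then TGACC) in 0.07%, the forkhead motif GTAAACA in 3.65% and the CLEAR motif TCACGTG, which partly matches other E-box motifs, in 3.77%. Of the 7 genes Lpar2, Lpar4, Lpar6 and Plpp2 had 1 half-site each, Lpar2 had 1 CLEAR motif, and none had the full element. A match describes letters in a window, and its absence says nothing on binding elsewhere.

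Lpar1, a receptor that couples to Gi, Gq and G12/13, was higher with estradiol and had changes of opposite sign in the Torin arms. It was at 8.31, 9.71 and 9.96 CPM in ethanol and 13.1, 13.2 and 11.0 CPM in estradiol, a log2 fold change of 0.42 (SE 0.11), with no overlap. In D6 the DMSO libraries were at 34.1, 32.5 and 33.4 CPM and the Torin libraries at 26.4, 30.5 and 23.1 CPM, a log2 fold change of -0.32 (SE 0.15), with no overlap. In D12 they were at 32.0, 33.3 and 34.2 CPM with DMSO and 33.9, 49.8 and 34.4 CPM with Torin, a log2 fold change of 0.25 (SE 0.14), which was 0.042 without the Torin library of 49.8 CPM. The difference between the arms was 0.57 (SE 0.20).

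Fibroblast markers were measured beside the Lpar1 levels. Of 14 such markers, 8 rose and 2 fell with estradiol, 0 rose and 12 fell with Torin in D6, and 1 rose and 2 fell in D12 (edgeR, adjusted p under 0.05 over all genes). Over all genes tested, 17.4% rose and 16.6% fell with estradiol, 19.8% and 19.3% in D6, and 10.8% and 14.6% in D12. The median log2 changes of the 14 markers were 0.55, -1.94 and -0.21. Their summed level was 1779 to 2021 CPM in ethanol, 1706 to 1877 in estradiol, 1888 to 2259 in DMSO D6, 1084 to 1515 in Torin D6, 1965 to 2096 in DMSO D12 and 1641 to 2331 in Torin D12, and none of the 14 was at 0 in a group. With estradiol the mean of that sum was lower (1770 against 1913 CPM in ethanol) while the median change was positive. Most of the sum in both groups was 1 marker, Postn, at a mean of 1502 CPM in ethanol and 1175 CPM in estradiol. Postn was at 906 CPM in DMSO D6 and 968 CPM in Torin D6, so the sum understates the fall of the other markers there. The 3 genes most like Lpar1 were Adamts14, a procollagen protease (r = 0.882), Fen1, a flap endonuclease of DNA replication (0.871), and Pdgfrb, one of the fibroblast markers (0.870). The part of fibroblasts in the Lpar1 levels was not tested.

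Lpar2, another receptor coupled to Gi, Gq and G12/13, had nearly the same level in both groups of the estradiol experiment. It was at 25.4, 25.9 and 28.3 CPM in ethanol and 29.2, 28.1 and 25.3 CPM in estradiol, and the log2 fold change was 0.056 (SE 0.07). In the Torin experiment it was at 5.13 to 6.37 CPM in the 6 DMSO libraries and 4.58 to 6.95 CPM in the 6 Torin libraries, with log2 fold changes of 0.064 (SE 0.17) in D6, which was 0.20 without Torin D6 replicate 3, and -0.27 (SE 0.17) in D12. The D12 libraries did not overlap, but with the authors' gene-length factors the D12 value was 0.040 and with limma on the deposited normalized values 0.037.

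Lpar4, a receptor coupled to Gs and G12/13 among others, was near the limit of detection, at 0.227 to 1.99 CPM over the 18 libraries and 53 to 111 reads per group of 3. Its log2 fold changes were -0.56 (SE 0.29) with estradiol, 0.88 (SE 0.60) in D6, which was 0.61 without Torin D6 replicate 3, and 0.36 (SE 0.60) in D12, the last between -0.35 and 0.81 over the alternatives run. The groups overlapped in every comparison. The 3 Torin D12 libraries held 24, 6 and 47 Lpar4 reads, so libraries of one group differed widely.

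Lpar5, the remaining LPA receptor gene, was not among the 9 and could be tested. It fell with estradiol, from 3.29, 2.77 and 2.96 CPM to 1.98, 1.52 and 1.36 CPM (log2 -0.89, SE 0.22, edgeR adjusted p = 0.00605). It fell with Torin in D6, from 3.15, 2.86 and 2.89 CPM to 1.39, 1.502 and 2.01 CPM (log2 -0.86, SE 0.24, edgeR adjusted p = 0.0135), a call that was lost without Torin D6 replicate 1 (0.0511). In D12 the change of -0.57 (SE 0.23) did not pass the test (edgeR adjusted p = 0.094), though it did without DMSO D12 replicate 2 (0.0402, log2 -0.76). Lpar5 and Lpar3 thus lay on opposite sides of vehicle in estradiol and in Torin D6, Lpar5 lower and Lpar3 higher.

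**Figure D3:**
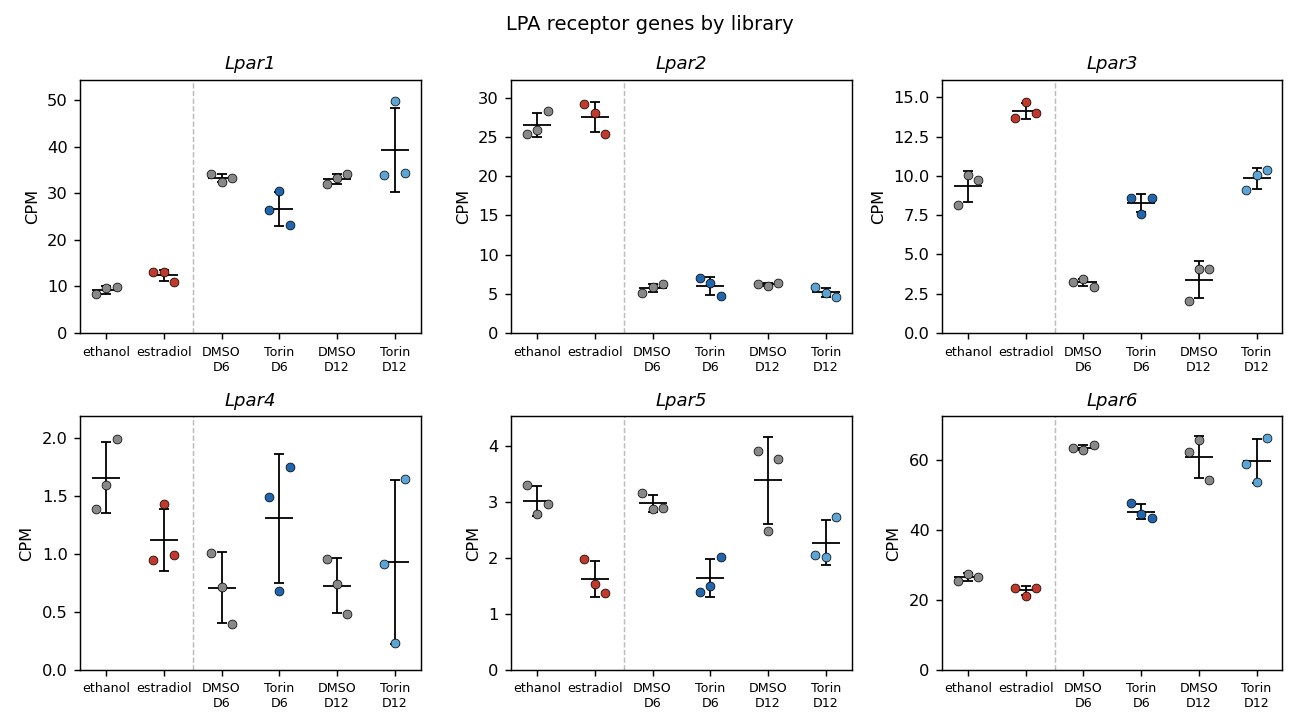
Level in CPM of the 6 LPA receptor genes in the 18 libraries; points are libraries, marks and bars are the mean and SD of 3, each panel has its own scale from 0, and the dashed line parts the separately normalized experiments. Lpar3 lies higher in each treated group, and Lpar2 lies at 25.3 to 29.2 CPM in the estradiol experiment and at 4.58 to 6.95 CPM in the Torin experiment.

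Plpp2 and Plpp3 were the most abundant of the 9 genes per kb, and Plpp3 lay below vehicle with estradiol and above it with Torin. Plpp3, the phosphatase whose loss in mice is lethal in the embryo, was at 126, 122 and 115 CPM in ethanol and 86.2, 88.0 and 81.0 CPM in estradiol, a log2 fold change of -0.51 (SE 0.05). It was at 206, 208 and 202 CPM with DMSO and 252, 223 and 290 CPM with Torin in D6, a log2 fold change of 0.31 (SE 0.10), which was 0.20 without Torin D6 replicate 3, the library of 290 CPM. In D12 it was at 193, 199 and 185 CPM with DMSO and 234, 235 and 279 CPM with Torin, a log2 fold change of 0.37 (SE 0.10). Treated libraries did not overlap vehicle in any of the 3 comparisons, with all estradiol libraries below and all Torin libraries above. The estradiol and Torin changes come from separate tables and their difference was not tested.

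Plpp2 was the most abundant of the 9 per kb in the estradiol experiment. It was at 125, 127 and 122 CPM in ethanol and 132, 137 and 127 CPM in estradiol, a log2 fold change of 0.083 (SE 0.04). With Torin it was at 119, 116 and 121 CPM against 90.4, 101 and 94.6 CPM in D6 (log2 0.32, SE 0.06), and at 104, 111 and 108 CPM against 102, 98.0 and 95.8 CPM in D12 (log2 0.12, SE 0.06). All treated libraries were above vehicle in each comparison, by a small margin in estradiol and D12. The difference between the arms was -0.20 (SE 0.09).

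Plpp1, the phosphatase of lowest abundance, was lower with Torin in D6. It was at 5.41, 4.75 and 5.93 CPM in ethanol and 6.39, 5.95 and 6.96 CPM in estradiol, a log2 fold change of 0.27 (SE 0.13). In D6 it was at 15.8, 13.0 and 13.3 CPM with DMSO and 9.19, 8.30 and 8.70 CPM with Torin, a log2 fold change of -0.68 (SE 0.13). In D12 the DMSO libraries at 13.1, 14.5 and 14.9 CPM overlapped the Torin libraries at 11.1, 12.9 and 14.3 CPM, and the log2 fold change was -0.15 (SE 0.13). The D12 minus D6 difference was 0.54 (SE 0.18). As with Lpar1, 12 of 14 fibroblast markers fell in D6, against 19.3% of all genes. The part of fibroblasts in the Plpp1 levels was not tested. Mtrex, whose exons overlap Plpp1 by 452 bases on the opposite strand, rose in D6 by 0.23 on the log2 scale (edgeR adjusted p = 0.0234), the direction opposite to Plpp1.

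Within the phosphatases the estradiol organoids had more Plpp2 and less Plpp3, with shares of 64.6% ± 0.66 and 32.8% ± 0.74 (SD, n = 3) in ethanol and 72.3% ± 0.21 and 24.4% ± 0.29 in estradiol of the summed level per kb. In the Torin experiment Plpp2 and Plpp3 were near balance, at 44.1% ± 1.57 and 49.8% ± 0.82 in DMSO D6, 45.7% ± 2.56 and 51.1% ± 2.74 in Torin D6, 46.4% ± 0.98 and 47.3% ± 0.80 in DMSO D12, and 43.1% ± 2.40 and 52.1% ± 2.29 in Torin D12. The phosphatase sum was 117 CPM per kb in ethanol, 110.4 in estradiol, 131 in DMSO D6, 158 in Torin D6, 129 in DMSO D12 and 151 in Torin D12.

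**Figure D4:**
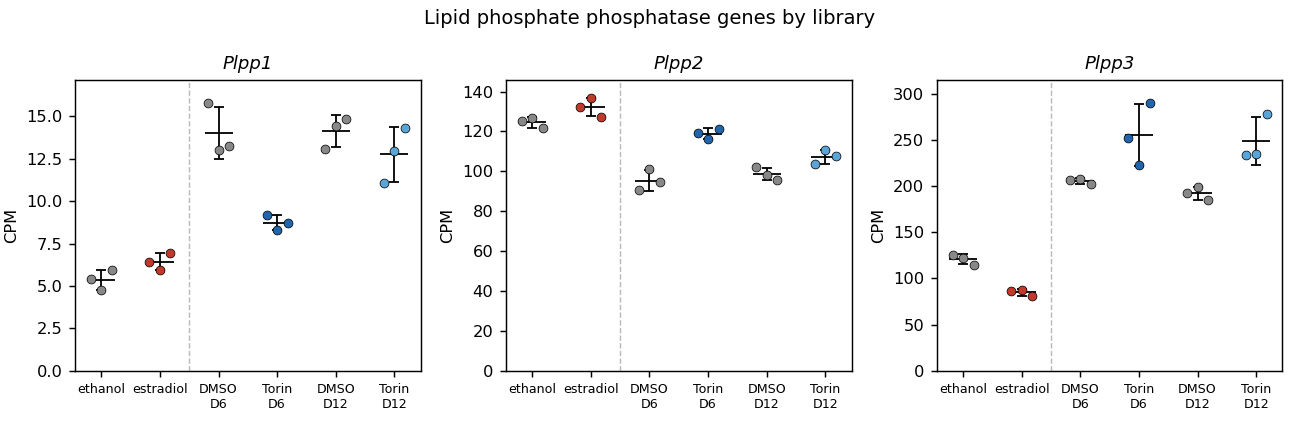
Level in CPM of the 3 lipid phosphate phosphatase genes in the 18 libraries; points are libraries, marks and bars are the mean and SD of 3, each panel has its own scale from 0, and the dashed line parts the separately normalized experiments. Plpp3 lies at 81.0 to 88.0 CPM in estradiol, below ethanol, and at 223 to 290 CPM in Torin, above DMSO.

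Counted over the 9 genes, 5 were past an adjusted p of 0.05 in estradiol (3 higher, 2 lower), against 34% of 15358 genes tested (17.4% higher, 16.6% lower). In Torin D6 6 were past it (4 higher, 2 lower) against 39.1% of 18112 genes (19.8% higher, 19.3% lower). In Torin D12 3 were (3 higher, 0 lower) against 25.4% (10.8% higher, 14.6% lower). The groups did not overlap for 7 of the 9 in estradiol against 46.4% of all genes, for 7 in D6 against 48.5% and for 5 in D12 against 43.7%. In the difference between the arms 1 of the 9, Lpar6, passed against 10.6% of all genes (2 with DESeq2). The Lpar6 call was unstable, kept in 6 of 19 alternatives and in 3 of the 12 that left out 1 library. Between the DMSO groups 0 of 9 passed in edgeR against 0.00552% of all genes, which is 1 gene (732 genes at an unadjusted p under 0.05, and 14 adjusted calls and 697 unadjusted ones with DESeq2). Because the genes were chosen on the levels behind these contrasts, nothing is read from these shares or from the Lpar6 call. The median log2 fold change of the 9 was 0.083 in estradiol, 0.31 in D6 and 0.25 in D12, and that of all genes tested was -0.0060, 0.048 and 0.012.

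**Figure D5:**
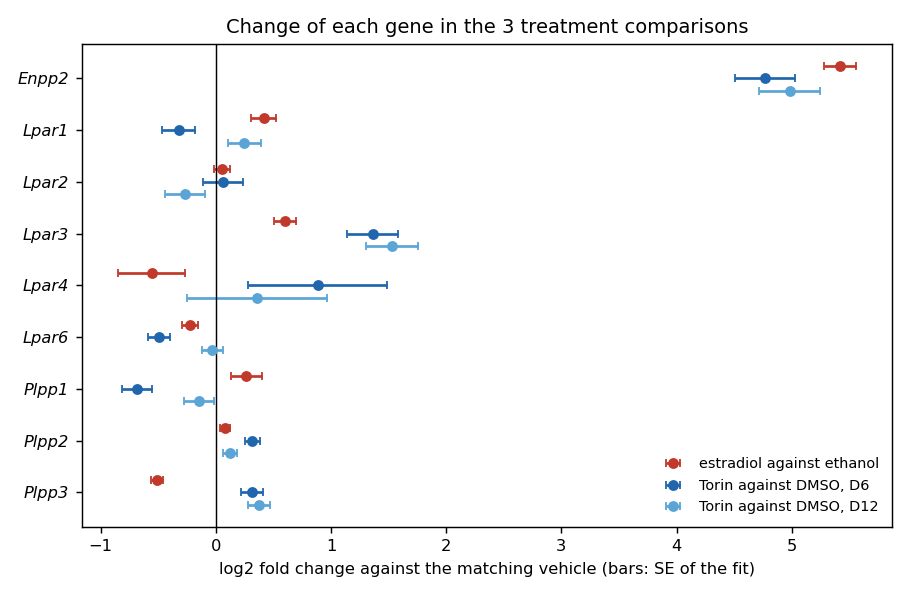
Log2 fold change of the 9 genes against the matching vehicle in the 3 treatment comparisons; points are fitted values and bars their SE. Enpp2 stands at 4.77 to 5.42, Lpar3 at 0.60 to 1.53, and Plpp3 lies at -0.51 with estradiol and at 0.31 and 0.37 with Torin.

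Genes around the pathway were counted in 5 lists, tested with edgeR at an adjusted p under 0.05 over all genes. Over all genes tested, 17.4% rose and 16.6% fell with estradiol, 19.8% and 19.3% in D6, and 10.8% and 14.6% in D12. The lists were not tested as sets. Torin D6 replicate 3 touched some of them. Lpcat4, an acyltransferase gene, was at 17.4, 13.7 and 65.7 CPM in the 3 Torin D6 libraries, the phosphatase gene Plpp6 at 3.16, 3.72 and 38.4 CPM, and Sgpp1, which dephosphorylates sphingosine 1-phosphate, at 13.5, 19.9 and 160.6 CPM. These genes are named because that library was high for them, a choice made after their values were seen. Autotaxin's relatives of the ENPP family changed in both directions. Of 4 other ENPP genes tested, 1 rose and 3 fell with estradiol, 1 rose and 3 fell in D6, and 1 rose and 1 fell in D12, with medians of -0.38, -1.05 and -0.27. Enpp5 fell in all 3 (log2 -0.74, -0.997 and -1.06, adjusted p = 4.61e-07, 1.18e-06 and 3.04e-06). Enpp1, which makes pyrophosphate from nucleotides, fell with estradiol from 215 to 150 CPM (log2 -0.52, edgeR adjusted p = 9.38e-07) and in D6 from 557 to 258 CPM (-1.11, 0.000358). Enpp3 rose with estradiol (0.24, edgeR adjusted p = 0.000626) and fell in D6 (-1.21, 4.98e-07).

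Other enzymes that can supply LPA or its precursor were lower rather than higher where they changed with Torin in D12. With estradiol 2 of the 8 supply genes tested rose and 2 fell. Of the 7 that could be tested with Torin 1 rose and 3 fell in D6 and 0 rose and 3 fell in D12, with medians of 0.10, -0.18 and -0.32. Liph, a phospholipase that makes LPA from phosphatidic acid, fell in D6 from 7.58 to 9.75 CPM in the 3 DMSO libraries to 0.814 to 1.06 CPM in the 3 Torin libraries (log2 -3.16, edgeR adjusted p = 1.26e-06) and in D12 from 8.13 to 1.58 CPM (-2.35, 2.24e-05). Gdpd1, a lysophospholipase D within cells, fell with estradiol from 58.8 to 32.2 CPM (-0.87, edgeR adjusted p = 7.60e-08) and in D12 from 116 to 48.3 CPM (-1.26, 7.68e-06), while its D6 change of 0.18 did not pass (0.185). Pla2g4a, a cytosolic phospholipase, fell in D6 (-0.92, edgeR adjusted p = 1.03e-06) and in D12 (-0.61, 5.99e-05). The estradiol count of 4 was 2 without ethanol replicate 1, ethanol replicate 2 or estradiol replicate 1, and the D6 count of 4 was 2 without DMSO D6 replicate 1 or 2 or Torin D6 replicate 1 or 2.

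Of 19 genes tested in the list for LPA acylation and removal, 4 rose and 4 fell with estradiol. In D6 6 rose and 5 fell, and in D12 2 rose and 4 fell, with medians of 0.021, 0.12 and 0.093 in that order. The list also holds Plppr genes, which are counted whether or not their products act on LPA. Agpat4, an acyltransferase that turns LPA into phosphatidic acid, fell from 9.90 to 3.16 CPM in D6 (-1.65, edgeR adjusted p = 2.60e-06) and from 9.59 to 4.47 CPM in D12 (-1.099, 0.000121). The estradiol count of 8 was 5 without ethanol replicate 2 or 3 or estradiol replicate 1. With the authors' length factors it was 2. Without Torin D6 replicate 3 the D6 count of 11 was 12, with a median of 0.034, and the D12 count of 6 was 10.

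Transcription targets that answer such signals changed in both directions, as did all genes tested. Of 18 SRF and YAP response genes, 5 rose and 4 fell with estradiol, 7 rose and 5 fell in D6, and 3 rose and 4 fell in D12, with medians of -0.0083, 0.21 and 0.030. Without Torin D6 replicate 3 the D6 median was 0.030 and 7 rose and 4 fell.

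The Torin effect differed between the arms for several of these response genes. Enpp2 was high with Torin in each arm, and a link between Enpp2 and these genes was not tested. Ankrd1, a YAP target, rose in D6 from 4.38 ± 1.09 to 60.3 ± 7.27 CPM (SD, n = 3; log2 3.78, edgeR adjusted p = 2.05e-06) and was at 5.19 and 5.21 CPM in D12, a change of 0.0058 (0.992). Ccn1, another YAP and SRF target, rose in D6 (0.74, edgeR adjusted p = 0.00152) and fell in D12 (-0.69, 0.00392). The difference between arms passed the test for both (edgeR adjusted p = 0.000156 and 0.000892). With estradiol Egr3, an immediate early gene, rose from 30.3 to 74.8 CPM (1.31, edgeR adjusted p = 6.97e-10) and F3, the tissue factor gene, from 43.9 to 98.9 CPM (1.17, 1.32e-08).

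Of the genes for sphingosine 1-phosphate, a lipid related to LPA, 8 were tested in estradiol and 10 with Torin, and 1 rose and 1 fell in each comparison, with medians of 0.094, 0.11 and -0.15. The estradiol count of 2 was 1 without ethanol replicate 3 or estradiol replicate 1 or 2, the D6 count of 2 was 4 without Torin D6 replicate 2, the D6 median was -0.023 without Torin D6 replicate 3, and the D12 count of 2 was 1 without DMSO D12 replicate 3 or Torin D12 replicate 1. Sphk1, a kinase that makes this lipid, fell with estradiol (-0.31, edgeR adjusted p = 0.00589) and rose in D6 (0.84, 6.20e-05).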

How the data were processed

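Polyadenylated RNA of the 18 libraries was made into directional libraries, per the labels' protocols. Tools listed in the submitters' processing notes are kallisto, DESeq2, cutadapt, Trim Galore, FastQC and MultiQC, with build GRCm39; use of strand is not given in the sources used here. The authors deposited whole counts for Torin. For estradiol the authors deposited estimated counts, of which 32.2% were not whole and were rounded here. They also deposited DESeq2-normalized values, a scaled signal used in 2 alternatives. Each experiment was fitted in edgeR 4.0.16 (R 4.3.3) with filterByExpr, TMM scaling, the quasi-likelihood test and Benjamini-Hochberg adjustment over all genes tested, with the 4 Torin groups sharing a spread, and the code was tested on simulated data. Exon lengths are from GENCODE M21 (GRCm38). Alternatives used DESeq2 1.42.0, limma 3.58.1, other scaling and filters, a replicate block, the authors' length factors and fits without each library.

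The genes, lists and rules were chosen with earlier results of these data known. Beside the 9 genes and Lpar5, the text draws from the 3 genes per list and comparison with the lowest adjusted p, and from the genes most like each of the 9. Gm26684, Rb1 and Mtrex are named for their exon overlap, Krt4 and Greb1 for passing 16-fold, and Lipe, Cidea, Lpcat4, Plpp6, Sgpp1, Acp6 and Ier2 after their values were seen. The result of 1 further list is not reported here.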

Additional observations from a re-analysis of the deposited data

Results flagged for a closer look

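The Torin effect differed between the arms, by the test of the difference itself in edgeR, for 14 genes of the surrounding lists, of which the naming rule covers 12. Over all genes tested, 10.6% passed this test. Values are log2, the D12 effect minus the D6 effect. Among genes of the lists for LPA supply and for LPA acylation and removal, Gdpd1 differed by -1.44, Lpcat2 by 0.68 and Plppr3 by 1.11. Among kinase and response genes, Limk2 differed by -0.43, Ccn1 by -1.43, Ccn2 by -1.205, Ankrd1 by -3.77, Amotl2 by -1.55 and Egr2 by 1.19. In the sphingosine 1-phosphate system Sphk1 differed by -1.09 and S1pr2 by 0.51, and among the ENPP genes Enpp3 by 1.00. S1pr2 passed in 15 of 19 alternatives and was lost without DMSO D6 replicate 2 or 3, DMSO D12 replicate 2 or Torin D12 replicate 2 (highest adjusted p = 0.0561 in edgeR), and Limk2 passed in 18 of 19. The other 2, named after their values were seen, were Acp6, a phosphatase of LPA, at -0.35 and Ier2, an immediate early gene, at 0.69. Without Torin D6 replicate 3, which stood apart from its group, 23 genes of these lists passed, all 14 among them. The arms also carry different batch tags, so treatment length and batch cannot be told apart.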

How the results depend on the processing

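The direction of Enpp2, Lpar3 and Plpp3 against vehicle was kept in all alternatives run (13 for estradiol, 20 for each Torin arm), with log2 ranges for Enpp2 of 5.16 to 5.92, 4.47 to 5.13 and 4.94 to 5.04, the 5.92 without ethanol replicate 1. The Enpp2 difference between arms was -0.15 to 0.51 when 1 library was left out, with -0.15 without DMSO D6 replicate 1. Leaving out 1 library gave 4191 to 4828 genes past the threshold for estradiol (5220 with all), 5595 to 7282 for D6 (7088), 3261 to 5992 for D12 (4592), 1219 to 2307 for the difference (1917), with 1219 without DMSO D6 replicate 3, and 1 to 2 for DMSO (1). DMSO D12 against D6 gave 14 genes with DESeq2, 4 without a low-count filter and 16 with the 2 groups alone. The cause was not tested. The count of the 9 genes was 4 to 5 for estradiol, 5 to 7 for D6, 2 to 3 for D12 and 0 to 2 for the difference. At 0.227 to 1.99 CPM, Lpar4 rested on 6 to 47 reads in each library.

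Replicate numbers did not pair the samples (correlations of same-numbered deviations -0.24 to 0.066). With a replicate block the counts were 4756 for estradiol, 6494 for D6, 4208 for D12, 1513 for the difference and 1 for DMSO, and the Lpar6 difference between arms was 0.46.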
